A study of Homo sapiens with 4 samples.

Results

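T24T and UMUC3, 2 cell lines from human bladder cancers, were compared by their transcript levels. T24T descends from the T24 bladder carcinoma line and was kept for its tumorigenic growth, and UMUC3 was derived from another invasive bladder cancer. All 4 libraries of the series were used, 2 from each line: T24T cells stably transfected with an empty vector (T24T vector) or with an overexpression plasmid for BCUC-1 (T24T BCUC-1), and the same pair from UMUC3 (UMUC3 vector and UMUC3 BCUC-1). BCUC-1 is a circular RNA (hsa_circ_0001361) formed from exons of FNDC3B, and all cells grew in the same serum-supplemented RPMI medium. The study was made to screen genes downstream of BCUC-1. The lines are compared here with the plasmid as a block, so the 2 libraries of a line are cultures that differ in plasmid, not repeats of 1 condition, and every culture compared carries a stably introduced plasmid. No untransfected cells are among the samples.

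Genes entered the comparison if they reached 1 RPKM (reads per kilobase of exonic length per 1000000 assigned reads) in at least 2 of the 4 libraries. This left 15415 of 32973 listed genes. Differences are T24T minus UMUC3 on the log2(RPKM + 1) scale, which understates the change of genes with low levels. A gene was called when limma's Benjamini-Hochberg adjusted p was under 0.05 and the fitted difference was at least 1 on that scale, a 2-fold difference. Values below are RPKM, given for the vector library first and the BCUC-1 library second.

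The urothelium that lines the bladder is built from basal, intermediate and luminal umbrella cells. Luminal cells make uroplakins under factors such as PPARG, GATA3 and FOXA1, basal cells make other keratins under TP63, and both are held together by cadherins, claudins and desmosomes. Bladder carcinomas can lose these features and gain mesenchymal ones such as vimentin. Common lesions in them touch the RAS and PI3K pathways, the p53 and RB pathways, the cohesin subunit STAG2 and the CDKN2A locus.

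The libraries held 22730112 to 26497894 assigned reads. Mitochondrial genes took 3.92% and 3.84% of the reads in T24T and 6.33% and 5.30% in UMUC3. The 2 libraries of a line were close to each other, and the lines were far apart. Between vector and BCUC-1, the SD of the log2 differences was 0.16 for T24T and 0.20 for UMUC3, 40 and 59 genes were 2-fold apart, and 0 were 4-fold apart. Between the lines the fitted differences had an SD of 0.90, and 649 genes were at least 4-fold apart. Across genes, which are not independent replicates, Pearson's r was 0.995 and 0.993 within the lines and 0.851 to 0.858 between them. FNDC3B stood at 5.68 and 5.40 in T24T and 6.27 and 6.19 in UMUC3, and was not called (-0.15, SE 0.089, limma adjusted p = 0.184). The circle itself is not measured by this value.

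In all, 1568 genes were called higher in T24T (10.2% of those tested) and 1192 higher in UMUC3 (7.73%), 17.9% in either direction. For each of these 2760 genes the lowest library of one line lay above the highest of the other. Lines that did not overlap were common among all genes tested, with 49.2% wholly higher in T24T and 36.6% wholly higher in UMUC3. The median difference over all genes was 0.10, so shares of members are read against 10.2% and 7.73% and medians against 0.10. With 1 residual degree of freedom the variance came largely from all genes together, so the p-values measure only the spread between these libraries.

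The leading genes in each direction are the 15 called genes with the largest difference that were at least 500 bases long, reached 10 RPKM in both libraries of the higher line and have no clone-based name. The largest difference belonged to a retinaldehyde dehydrogenase. ALDH1A3, which oxidizes retinaldehyde to retinoic acid, stood at 163 and 158 in T24T and 0.157 and 0.259 in UMUC3, a difference of 7.06 (SE 0.082, limma adjusted p = 2.36e-07). It lies on chromosome 15 from 100877714 to 100916626, and 27.5% of its exonic length is shared with the noncoding gene RP11-66B24.4, whose reads cannot be told apart without strand. The paralogue had the opposite pattern. ALDH1A1, an enzyme of the same reaction on chromosome 9 from 72900662 to 73080442, stood at 0.0593 and 0.104 in T24T and 41.5 and 36.9 in UMUC3 (-5.21, SE 0.10, limma adjusted p = 4.15e-07). Each line thus had a high level of one of these enzymes and a level near 0 of the other.

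PADI2 and PADI3, genes of a cluster on chromosome 1 for enzymes that turn arginine into citrulline in proteins, came next. PADI2 stood at 146 and 133 in T24T and 0.12 and 0.125 in UMUC3 (6.97), and PADI3 at 111 and 105 against 0.189 and 0.221 (6.50). The other leading T24T genes were STMN3, a microtubule regulator (66.7 and 62.3 against 0.0622 and 0.0435), MDK, the heparin-binding growth factor midkine (81.3 and 76.5 against 0.344 and 0.401), and SPINT2, an inhibitor of membrane-bound serine proteases (48.4 and 47.1 against 0.0798 and 0.0677). AREG, a ligand of the EGF receptor, stood at 56.8 and 54.2 against 0.618 and 0.374, and FGFBP1, which releases fibroblast growth factors from the matrix, at 33.2 and 32.0 against 0 and 0.0324. DCBLD2, ADGRG6, CLDN16, SNURF, THBS1, MT1E and ARHGEF35 complete the 15, with differences from 5.0 to 6.05 and limma adjusted p from 2.36e-07 to 8.12e-07 over the set. MT1E belongs to the metallothioneins and ARHGEF35 to a set of near-identical copies, so reads could be split among relatives.

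IL13RA2, a decoy receptor for interleukin-13 on the X chromosome from 115003975 to 115019977, led these genes in the other direction. It stood at 0.234 and 0.495 in T24T and 133 and 115 in UMUC3 (-6.52, SE 0.12, limma adjusted p = 4.1e-07). SPARC, a collagen-binding matricellular protein, followed with 0.245 and 0.246 against 59.4 and 59.8 (-5.60). UCHL1, a ubiquitin hydrolase best known from neurons, stood at 0.0185 and 0.0929 against 23.3 and 24.3. MME, the membrane peptidase neprilysin, stood at 0.272 and 0.317 against 30.3 and 26.3, and its antisense gene MME-AS1 shares 25.8% of its exonic length with it. Genes with restricted normal expression were in the set: TMPRSS15, the intestinal protease enteropeptidase (0.0299 and 0.0501 against 28.3 and 27.2), and HBE1, an embryonic globin (0.137 and 0 against 22.1 and 20.1). HTATIP2, TCEAL8, CAPG, SFTA1P and the antigens MAGEA4, MAGEA6 and MAGEC2 complete the 15, with differences from -5.14 to -4.32.

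**Figure D1:**
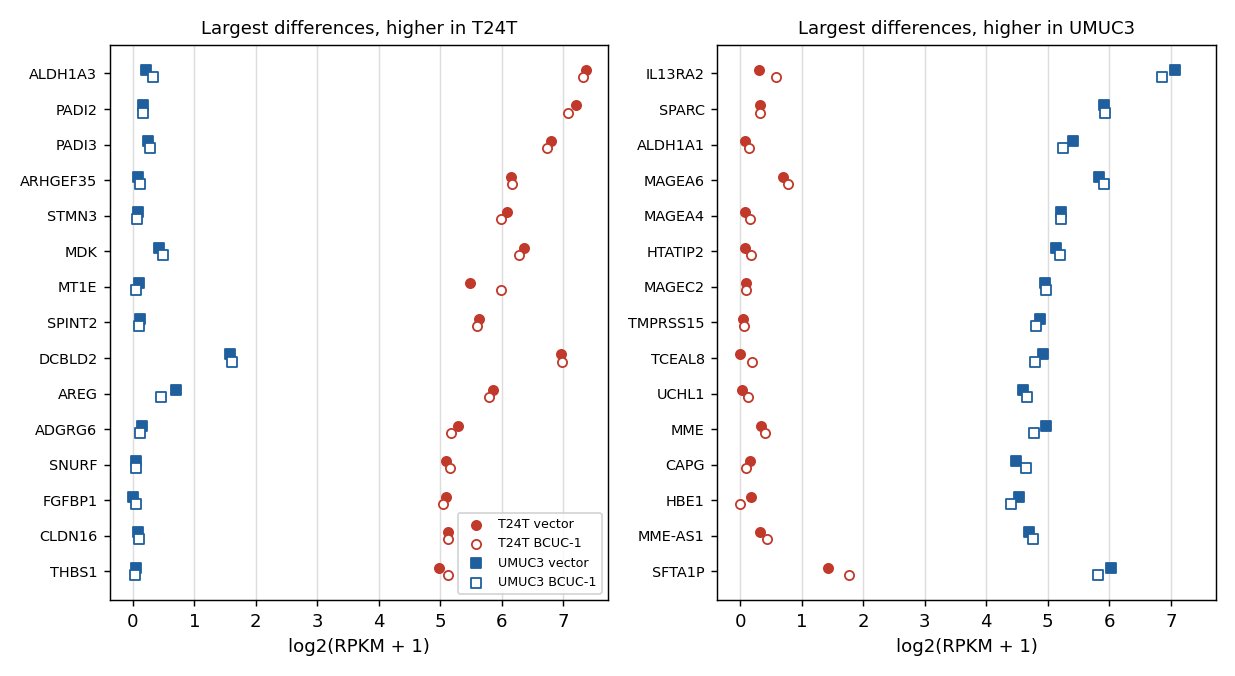
Level of the 15 genes with the largest called difference in each direction, as log2(RPKM + 1) on a linear axis, with 1 point per library (circles T24T, squares UMUC3, filled vector, open BCUC-1). Clone-based names, genes under 10 RPKM or 500 bases, XIST, chromosome Y genes, pseudogenes, and repeated or date-altered names are left out. The 2 libraries of a line lie beside each other, and the lines are separated for each gene, as for ALDH1A3 at 163 and 158 against 0.157 and 0.259 RPKM.

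Most of the 41 gene lists held calls. Of the 31 with at least 10 members tested, 22 had a share called higher in T24T above the background of 10.2%, 23 a share called higher in UMUC3 above 7.73%, and 18 had both, so a share above the background is common among these lists. The highest T24T shares were those of epithelial adhesion, HOX and cholesterol genes (81.8%, 50% and 37.5%), followed closely by growth factors (36.8%). The highest UMUC3 shares were those of cancer-testis antigens, proteases and NF-kB genes (60%, 57.1% and 50%). No list was tested as a set.

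**Figure D2:**
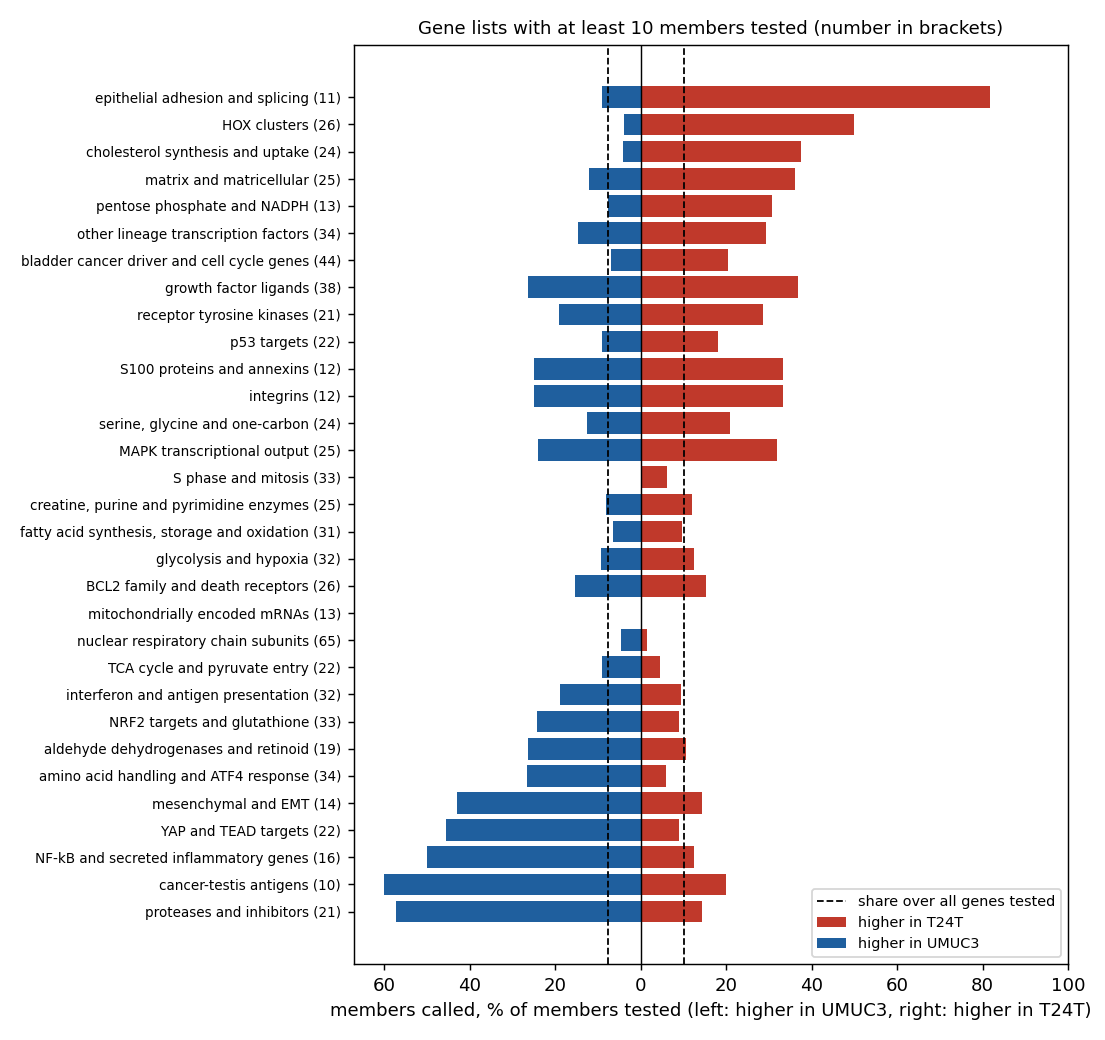
Share of tested members called higher in T24T (right, red) or in UMUC3 (left, blue) for lists with at least 10 members tested, the number tested in brackets. Dashed lines mark the shares over all 15415 genes, 10.2% and 7.73%, and the epithelial adhesion list stands highest on the right with 9 of 11 members.

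Adhesion genes of epithelia had a higher share of calls than any other list with at least 10 members tested. Of 30 listed members 11 passed the floor, and 9 of these were called higher in T24T and 1 higher in UMUC3, with a median difference of 1.70. CLDN1, a tight junction claudin, stood at 186 and 197 in T24T and 7.35 and 5.74 in UMUC3 (4.68, limma adjusted p = 5.58e-07). DSP, the desmosomal plaque protein desmoplakin, stood at 18.7 and 18.4 against 0.0337 and 0.0479 (4.23). JUP, which links desmosomes and cadherins to the cytoskeleton, stood at 11.4 and 10.1 against 0.0229 and 0.0267 (3.52), and the desmosomal cadherin DSG2 at 20.4 and 19.1 against 2.24 and 2.11 (2.71). UMUC3 was thus near 0 for DSP and JUP, while DSG2 was detected in both lines. PKP3, another desmosomal plaque protein, was the exception, at 0.424 and 0.381 in T24T and 1.75 and 1.88 in UMUC3 (-1.01), and its difference was under 2-fold without T24T BCUC-1 (-0.98) and without UMUC3 BCUC-1 (-0.97).

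Both lines lacked the main epithelial cadherin. CDH1 stood at 0.00684 and 0.00686 in T24T and 0 and 0 in UMUC3, EPCAM at 0.218 and 0.219 against 0.0150 and 0.0175, and ESRP1, a splicing factor of epithelial cells, at 0.0693 and 0.0957 against 0.00774 and 0. These 3 genes are named because of their known role, after their values were seen. They were among 16 members below the floor, none of which exceeded 0.794 RPKM, and another 3 members were not analysed here.

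Keratins of simple epithelia followed the junction genes. Of 7 tested members of the keratin and filament list, 4 were called higher in T24T and 2 in UMUC3. KRT8 stood at 133 and 146 in T24T and 13 and 13.2 in UMUC3 (3.31), and its partner KRT18 at 81.5 and 88.2 against 39.9 and 42.1 (1.03; 0.97 without T24T BCUC-1 and 0.99 without UMUC3 vector, both under the rule). KRT7 stood at 27.1 and 25.0 against 2.99 and 3.02 (2.75), and KRT80 at 63.6 and 65.0 against 5.67 and 6.79 (3.18). VIM, the filament protein of mesenchymal cells, went the other way with 82.9 and 87.0 in T24T and 234 and 268 in UMUC3 (-1.55, limma adjusted p = 4.76e-06). NES, a filament of progenitor cells, stood at 0.205 and 0.160 against 1.86 and 2.18 (-1.35). KRT8 was thus above VIM in T24T, and VIM above KRT8 in UMUC3, on this per-length scale. KRT15 (0.611 and 0.458 against 1.12 and 1.31) was not called, and KRT4, KRT19, KRT23, KRT34 and KRT81 did not exceed 0.681 RPKM.

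Markers of urothelial differentiation were low in both lines. Of 19 members, 12 were below the floor and 6 were tested, of which 2 were called higher in T24T and 0 in UMUC3. The highest uroplakin, UPK1B, reached 0.895 and 1.03 in T24T with 0 in both UMUC3 libraries, and UPK2 had 0.955 and 0.345 against 0.580 and 0.477. GATA3 stood at 0.273 and 0.287 against 0.104 and 0.149, and FOXA1 at 1.17 and 0.862 against 0.616 and 0.619. PPARG stood at 1.83 and 1.60 against 1.87 and 1.65 and was not called (-0.026, SE 0.097, limma adjusted p = 0.824). The called members were ERBB3, a receptor of the EGF receptor family (2.10 and 1.62 against 0.235 and 0.234), and KLF5, a factor of proliferating epithelia (2.87 and 2.56 against 0.688 and 0.576). ERBB2, TBX3 and FGFR3 were not called, and ELF3, GRHL3, KRT20, FABP4, SNX31, UPK1A, UPK3A and UPK3B did not exceed 0.371 RPKM.

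The basal markers KRT5 and TP63 were no higher. Of 22 listed basal or squamous members, 10 were not analysed here and 7 were below the floor, none of which exceeded 0.271 RPKM. KRT5 stood at 0.0295 and 0.0198 in T24T with 0 in UMUC3, and TP63 at 0.0623 and 0.0512 against 0.167 and 0.106. Of the 5 basal or squamous genes tested, S100A2, a calcium-binding protein of basal cells, stood at 46.3 and 48.1 against 6.12 and 6.40 (2.73), and EGFR at 32.7 and 31.2 against 9.76 and 10.3 (1.58). COL17A1, a hemidesmosome collagen, was called in the other direction (0.370 and 0.508 against 7.73 and 9.09, -2.71). CD44 (68.1 and 72.0 against 60.6 and 62.5) and LAMB3 (22.2 and 24.9 against 11.2 and 13.3) were not called. The uroplakins analysed here, KRT5 and TP63 thus did not exceed 1.03 RPKM in either line.

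The mesenchymal list leaned to UMUC3, with 6 of 14 tested members called higher there and 2 in T24T (median -0.71). Besides SPARC, these were CALD1, an actin-binding protein of contractile cells (7.06 and 7.37 in T24T, 79.9 and 71.2 in UMUC3, -3.22), and MMP2, a gelatinase (0.0856 and 0.0602 against 4.17 and 5.35, -2.42). ZEB1, a repressor of epithelial genes, stood at 4.18 and 4.62 against 22.8 and 21.3 (-2.09), and the receptor kinase AXL at 23.5 and 24.5 against 90.7 and 105 (-1.98). FOXC2, a mesenchyme factor, and COL6A2, a collagen chain, were higher in T24T (5.2 and 5.59 against 0.853 and 0.870, and 8.17 and 7.84 against 2.39 and 2.69). CDH2, the neural cadherin, was not called (6.64 and 6.64 against 5.50 and 5.31), nor was SNAI1 (2.05 and 1.91 against 3.76 and 3.21).

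**Figure D3:**
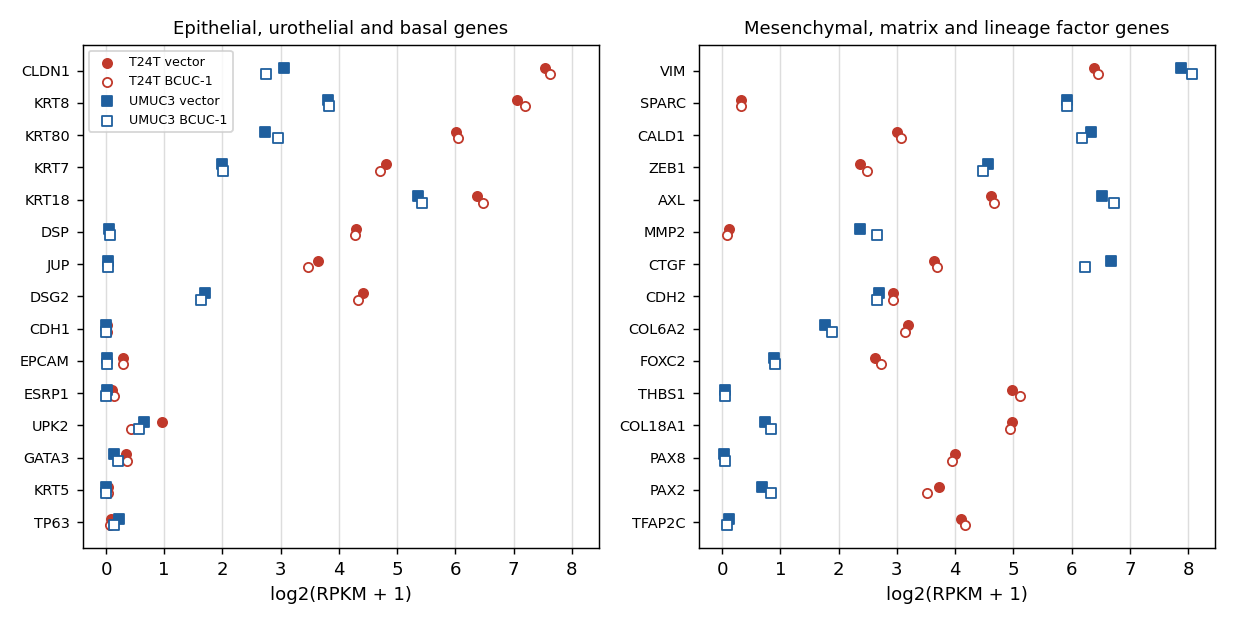
Levels of epithelial, urothelial and basal genes (left) and of mesenchymal, matrix and lineage factor genes (right) as log2(RPKM + 1), 1 point per library, symbols as in the legend. DSP, JUP and KRT8 are higher in T24T, VIM, SPARC and CALD1 are higher in UMUC3, and CDH1, KRT5 and TP63 lie near 0 in all 4 libraries.

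Matrix genes did not follow the mesenchymal list. Of 25 tested, 9 were called higher in T24T and 3 in UMUC3 (median 0.77). At a floor of 5 RPKM, 15 were tested, with 5 and 2 called and a median of 0.17. THBS1, the adhesive glycoprotein thrombospondin, stood at 30.4 and 33.8 in T24T and 0.0371 and 0.0288 in UMUC3 (5.0), and COL18A1, a basement membrane collagen, at 30.4 and 29.7 against 0.660 and 0.784 (4.17). EFEMP1, a fibulin, stood at 4.53 and 4.78 with 0 in both UMUC3 libraries, and the proteoglycan gene VCAN at 4.35 and 4.25 against 0.0763 and 0.0860. CTGF (11.4 and 11.9 against 101 and 74.3, -2.79), the glypican GPC6 (0 and 0 against 2.95 and 3.14) and tenascin TNC (2.12 and 1.95 against 8.31 and 9.98) were higher in UMUC3. Integrins, the matrix receptors, divided 4 to 3 among 12 tested. ITGB1, the shared beta chain, stood at 177 and 179 against 376 and 378 (-1.08), and the laminin receptor chain ITGA6 at 71.9 and 80.3 against 35.3 and 34.7 (1.10).

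HOX genes, which record position along the body axis, differed mostly in one direction. Of 26 tested, 13 were called higher in T24T and 1 in UMUC3 (median 0.98). HOXC9 stood at 6.67 and 6.34 against 0.0450 and 0.0262 (2.86), HOXB6 at 27.7 and 23.9 against 5.48 and 5.39 (2.06), and HOXA10 at 2.93 and 2.72 against 0.0102 and 0 (1.93). HOXA7 had the largest difference (9.98 and 10.7 against 0.313 and 0.292, 3.12), but shares 62.5% of its exonic length with HOXA-AS3. HOXD13, the most posterior gene of its cluster, was the member higher in UMUC3 (0.0189 and 0 against 3.52 and 3.14, -2.10). HOXB7 (30.1 and 29.5 against 26.5 and 26.8) and HOXB2 (17.7 and 17.5 against 15.5 and 16.2) were not called.

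Other lineage factors included renal and placental ones. Of 34 tested, 10 were called higher in T24T and 5 in UMUC3. PAX8, a factor of kidney and thyroid development, stood at 15 and 14.4 in T24T and 0.0204 and 0.0297 in UMUC3 (3.94), and PAX2, of the developing kidney, at 12.2 and 10.4 against 0.605 and 0.782 (2.86). TFAP2C, of trophectoderm and germ cells, stood at 16.2 and 17.0 against 0.0879 and 0.0586 (4.04), and the fetal RNA-binding protein IGF2BP1 at 9.73 and 9.73 against 0.0290 and 0.0338 (3.38). The related IGF2BP2 had the opposite direction, at 17.2 and 17.6 against 41.4 and 43.3 (-1.24). FOXF2, a mesenchyme factor, stood at 0.850 and 0.853 against 10.6 and 11.6 (-2.71), and FOXD1, of the renal stroma, at 12.0 and 14.8 against 41.9 and 44.6 (-1.63).

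Cancer-testis antigens, which are normally limited to germ cells, had the most negative list median, -3.95, with 6 of 10 tested members higher in UMUC3 and 2 in T24T. MAGEA4, on the X chromosome from 151912509 to 151925170, stood at 0.0548 and 0.124 in T24T and 36.3 and 36.2 in UMUC3 (-5.10). MAGEC2, from 142202345 to 142205290 on the same chromosome, stood at 0.0636 and 0.0639 against 29.9 and 30.5 (-4.87), and MAGEA6 at 0.612 and 0.705 against 56.2 and 59.2 (-5.14). MAGEA6 and MAGEA3 are near-identical copies, so the split of reads between them is uncertain. DDX43, an RNA helicase, stood at 0.0903 and 0.151 against 21.6 and 17.9 (-4.20). LY6K was higher in T24T (19.1 and 21.9 against 1.18 and 1.24) but shares 71.0% of its exonic length with an overlapping gene, and the meiotic gene TEX15 stood at 1.23 and 1.07 against 0.0194 and 0.0113. MAGEA1 (0.994, 1.83 and 1.81 against 0.530 and 0.309) lay just under the 2-fold rule.

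Other cell types were checked by their markers. Of 10 leukocyte markers 1 was tested, CD68, a lysosomal protein of macrophages and other cells (7.45 and 6.78 against 119 and 124), which shares 81.7% of its exonic length with RP11-186B7.4. CD14 did not exceed 0.140 RPKM, the 6 markers below the floor did not exceed 0.213, and 3 were not analysed here. No fibroblast marker passed the floor, the highest reaching 0.288 RPKM, and of 8 endothelial markers only EGFL7 did (3.59 and 3.90 against 4.98 and 5.70). Of 5 tested neuroendocrine genes, UCHL1 and CHGB were higher in UMUC3, while CHGA and the other members below the floor did not exceed 0.0632 RPKM. In bulk RNA, fewer cells that express a gene and less RNA per cell cannot be told apart.

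Bladder cancer driver and cell cycle genes differed at a few members. Of 44 tested, 9 were called higher in T24T, 3 higher in UMUC3 and 32 were not called, with a median of 0.19 that was 0.055 with equal medians. STAG2, a cohesin subunit on the X chromosome, stood at 33.7 and 31.9 in T24T and 2.50 and 2.27 in UMUC3 (3.32, SE 0.080, limma adjusted p = 7.95e-07). CDKN2A, an inhibitor of the kinases CDK4 and CDK6, stood at 6.48 and 5.98 against 0 and 0.0102 (2.85), and the adjacent CDKN2B at 1.36 and 1.36 with 0 in both UMUC3 libraries.

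CCND2, a cyclin of G1, pointed the other way, with 0.171 and 0.118 in T24T and 6.46 and 6.55 in UMUC3 (-2.71, SE 0.099, limma adjusted p = 2.78e-06). CDK4 was also higher in UMUC3 (26.6 and 28.6 against 66.6 and 66.7), though 43.2% of its exonic length lies in TSPAN31. MDM2, which degrades p53, stood at 18.1 and 17.4 against 7.33 and 6.44 (1.25), its relative MDM4 at 3.56 and 3.15 against 1.16 and 1.18 (1.01; 0.94 without T24T vector), and TERT, the telomerase catalytic subunit, at 6.95 and 5.95 against 1.95 and 2.57 (1.19). HRAS was not called (47.0 and 47.1 against 22.9 and 26.9, 0.89). Among members with little difference were RB1 (15.2 and 15.3 against 17.6 and 15.3), CCNE1, KMT2C, ERCC2 and BRAF, and MYC stood at 15.8 and 16.1 against 25.4 and 25.7 (-0.64). These are RNA levels, and no mutation or copy number was read from them.

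Receptor kinases split, with 6 of 21 tested higher in T24T and 4 in UMUC3, and 2 and 3 of 10 at a floor of 5 RPKM. EGFR and PTK7, a pseudokinase of planar polarity (7.69 and 7.54 against 0.636 and 0.614, 2.41), were higher in T24T, as were FGFR4 (4.12 and 4.36 against 0.313 and 0.437) and MST1R (2.30 and 2.19 against 0 and 0.0168). AXL, FGFR1 (1.87 and 1.91 against 6.66 and 7.20), EPHB2 (0.361 and 0.376 against 7.48 and 8.04) and the collagen receptor DDR2 (0.291 and 0.253 against 4.73 and 4.51) were higher in UMUC3. MET, the receptor of hepatocyte growth factor, missed the 2-fold rule (16 and 17.2 against 33.5 and 30.3, -0.90).

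Growth factor ligands had many calls in both directions, 14 of 38 tested in T24T and 10 in UMUC3. MDK and AREG led in T24T, with INHBA, an activin chain (9.30 and 8.96 against 0.0136 and 0.0159, 3.32), and DKK3, a secreted Dickkopf relative (34.9 and 35.7 against 2.58 and 3.61, 3.16). IGF2 led in UMUC3 (2.87 and 2.57 against 21.7 and 20.5, -2.57), with BMP6 (1.31 and 1.57 against 12.2 and 12.5), WNT7B (0.343 and 0.386 against 5.37 and 7.03) and the KIT ligand KITLG (1.17 and 1.11 against 10.3 and 9.43). EGFR and its ligand AREG were thus both called higher in T24T.

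Genes induced by MAPK signalling divided 8 to 6 among 25 tested, with a median of 0.012 whose sign turned (-0.13 at the lowest) under other scalings and without either BCUC-1 library. The early factor EGR1 (10.8 and 10.2 against 1.05 and 1.12, 2.47), the feedback inhibitor SPRY2 (18.1 and 18.4 against 4.40 and 4.10, 1.88) and the protease inhibitor TFPI2 (32.7 and 32.6 against 5.41 and 4.69, 2.48) were higher in T24T. The phosphatase DUSP5 (7.11 and 7.75 against 23.7 and 24.4, -1.57) and the plasminogen activator genes below were higher in UMUC3. Among 33 genes of S phase and mitosis, 2 were called: CCNB1, a mitotic cyclin (146 and 148 against 54.2 and 57.9, 1.38), and the checkpoint kinase BUB1 (32.8 and 32.3 against 15.1 and 15.6, 1.04; 0.90 with equal medians). TOP2A (153 and 149 against 122 and 125) and TYMS (170 and 176 against 154 and 162) were not.

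Secreted proteases and their inhibitors had 12 of 21 tested members higher in UMUC3 and 3 in T24T (median -1.17). PLAU, the urokinase, stood at 22.3 and 21.7 in T24T and 121 and 139 in UMUC3 (-2.51), with 31.1% of its exonic length shared with C10orf55. Its receptor PLAUR stood at 5.54 and 5.89 against 19.99 and 19.1 (-1.61). Enzyme and receptor were thus called in the same direction. ADAM12 (0.0771 and 0.0602 against 6.53 and 7.21) joined them, while CTSV, a cysteine protease (12.0 and 11.6 against 0.450 and 0.431, 3.15), and SERPINE2 were higher in T24T.

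YAP and TEAD targets had 10 of 22 tested members higher in UMUC3 and 2 in T24T (median -0.64). NT5E, which makes adenosine outside the cell, stood at 5.97 and 7.09 against 72.9 and 71.9 (-3.29), and the IGF-binding protein IGFBP3 at 0.351 and 0.501 against 14.3 and 11.3 (-3.27). CYR61, a matricellular protein next to CTGF in family, was not called (75.5 and 91.3 against 136 and 120, -0.61). DLC1, an activator of small GTPases, was higher in T24T (7.95 and 8.55 against 0.705 and 0.646, 2.46), and TGFB2 stood at 1.15 and 1.23 with 0 in both UMUC3 libraries.

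NF-kB and secreted inflammatory genes had 8 of 16 tested members higher in UMUC3 and 2 in T24T (median -0.94). IL32 stood at 0.118 and 0.0925 against 4.62 and 4.8, CSF1, the macrophage growth factor, at 0.312 and 0.258 against 4.42 and 4.98, and BIRC3, an inhibitor of apoptosis induced by NF-kB, at 4.98 and 4.83 against 34.2 and 23.1 (-2.30). LIF, a cytokine of the interleukin-6 family (51.8 and 50.6 against 8.32 and 8.82, 2.45), and the chemokine CXCL1 (54.4 and 65.0 against 18.6 and 15.2, 1.76) were higher in T24T. CXCL8 was not called (13 and 15.6 against 10.7 and 9.83). Interferon and antigen presentation genes had 6 of 32 higher in UMUC3 and 3 in T24T, and 2 of 17 each way at a floor of 5 RPKM. IFI44 (0.290 and 0.354 against 13.9 and 15.2, -3.55), the DNA sensor IFI16 (0.0718 and 0.0641 against 4.24 and 4.72) and TMEM173, the adaptor STING (0.0548 and 0.0661 against 1.47 and 2.09), were higher in UMUC3, and IFI6 (8.10 and 8.38 against 2.27 and 2.54) and TAPBP in T24T. B2M lay just under the rule (30.0 and 30.0 against 61.6 and 58.8, -0.98).

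Genes activated by p53 had 4 of 22 tested members higher in T24T and 2 in UMUC3. GDF15, a stress cytokine, stood at 8.84 and 7.27 against 0.0362 and 0.0632 (3.10), and FDXR, a mitochondrial reductase, at 12.2 and 10.4 against 1.25 and 1.41 (2.39). EDA2R (0 and 0.0118 against 1.69 and 1.79) and SESN2 (1.41 and 1.42 against 5.79 and 5.29) were higher in UMUC3, and CDKN1A, a cell cycle inhibitor, was not called (13.9 and 13.4 against 18.6 and 18.6). The apoptosis list had 4 of 26 in each direction, with a median of 0.055 whose sign turned to -0.069 under another scaling. BCL2A1 (0.194 and 0.117 against 10.8 and 9.90, -3.29) was higher in UMUC3, and BCL2L1 (43.1 and 45.6 against 17.1 and 18.5, 1.27) and XIAP (10.6 and 9.71 against 3.45 and 2.79, 1.44) in T24T. BCL2L1 shares 43.0% of its exonic length with ABALON. Of 8 Notch and Wnt genes, HES1 was called (4.42 and 3.89 against 1.13 and 0.768), and the list's median of 0.091 turned to -0.043 under another scaling.

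Of 12 tested S100 and annexin genes, which code for calcium-binding proteins, 4 were called higher in T24T, 3 in UMUC3 and 5 were not called. S100A13 (53.1 and 49.97 against 9.96 and 9.85, 2.27), S100A6 (76.1 and 74.9 against 18.0 and 18.5, 1.99) and S100A2 were higher in T24T. ANXA1 (11.4 and 12.0 against 103 and 106, -3.06), ANXA6 (6.37 and 6.45 against 17.7 and 20.1, -1.42) and ANXA2 (96.7 and 97.9 against 201 and 218, -1.10), which bind membranes, were higher in UMUC3. S100A16 (73.4 and 79.4 against 96.8 and 91.1, -0.30) and ANXA5 (67.2 and 70.1 against 113 and 113, -0.71) were not called.

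Aldehyde and retinoid genes held the widest range of any list, from -5.21 to 7.06, with 2 of 19 tested higher in T24T and 5 in UMUC3. Beside ALDH1A1, the retinoic acid carrier CRABP2 was higher in UMUC3 (1.07 and 0.886 against 14.8 and 15.2, -3.01), as was TGM2, a transglutaminase (26.4 and 30.2 against 63.1 and 65.4, -1.16). CYP26B1, which degrades retinoic acid, was higher in T24T (3.31 and 3.41 against 0.00753 and 0.00877, 2.11). ALDH18A1 and ALDH9A1, of proline and carnitine synthesis, were not called (17.6 and 18.4 against 23.3 and 26.2, and 20.4 and 20.2 against 22.3 and 23.3).

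To set the leading genes beside their sequence, the windows from 250 bases before to 50 after the start site were read for the paired dehydrogenases and for a pair of X-linked antigens that were high together in UMUC3. They come from RefSeq on GRCh38.p14, 5′ to 3′ on the gene's strand, with CG dinucleotides in capitals: ALDH1A3 at chr15:100879581-100879880 (plus strand), ALDH1A1 at chr9:72953004-72953303 (minus), MAGEA4 at chrX:151912224-151912523 (plus) and MAGEC2 at chrX:142205241-142205540 (minus).
ALDH1A3: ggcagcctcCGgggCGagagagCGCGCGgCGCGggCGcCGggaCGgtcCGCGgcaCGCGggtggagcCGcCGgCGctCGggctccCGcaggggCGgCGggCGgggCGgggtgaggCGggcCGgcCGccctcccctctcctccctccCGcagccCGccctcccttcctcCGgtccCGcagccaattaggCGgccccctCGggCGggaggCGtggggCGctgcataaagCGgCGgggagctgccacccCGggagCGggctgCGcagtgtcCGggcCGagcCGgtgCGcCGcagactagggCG
ALDH1A1: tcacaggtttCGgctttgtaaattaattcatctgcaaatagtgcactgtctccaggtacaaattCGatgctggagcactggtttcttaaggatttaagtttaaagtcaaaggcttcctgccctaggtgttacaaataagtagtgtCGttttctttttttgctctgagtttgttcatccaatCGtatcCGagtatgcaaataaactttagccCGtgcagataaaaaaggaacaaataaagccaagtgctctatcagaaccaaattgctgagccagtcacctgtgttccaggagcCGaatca
MAGEA4: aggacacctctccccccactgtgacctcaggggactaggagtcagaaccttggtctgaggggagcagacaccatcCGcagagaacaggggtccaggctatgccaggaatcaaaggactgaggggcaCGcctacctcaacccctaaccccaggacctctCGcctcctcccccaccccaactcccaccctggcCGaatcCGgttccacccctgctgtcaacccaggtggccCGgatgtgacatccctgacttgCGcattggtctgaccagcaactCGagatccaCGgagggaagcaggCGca
MAGEC2: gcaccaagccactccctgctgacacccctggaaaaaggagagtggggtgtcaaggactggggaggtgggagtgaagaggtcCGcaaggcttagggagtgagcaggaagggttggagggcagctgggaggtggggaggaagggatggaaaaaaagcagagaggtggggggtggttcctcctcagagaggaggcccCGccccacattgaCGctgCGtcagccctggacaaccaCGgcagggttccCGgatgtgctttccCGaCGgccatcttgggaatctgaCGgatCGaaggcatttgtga

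The motif searched was CG, which reads the same on both strands. The ALDH1A3 window held 46, and 97.6% of all 27195 promoter windows of this length held as many or fewer. ALDH1A1 held 7 (39.8%), and MAGEA4 and MAGEC2 held 10 each (45.5%). Among genes under 0.1 RPKM in both libraries of one line and at least 5 RPKM in both of the other, the median was 23 for those near 0 in UMUC3 (49 of 81 matched) and 19 for those near 0 in T24T (29 of 62 matched). The median was 27 over tested genes (8995 of 15415 matched), and 84.2% of those matched held at least 15. Over all 27195 windows, which the percentages of single genes refer to, the median was 14. The windows of ALDH1A1, MAGEA4 and MAGEC2 were thus poor in CG beside those of most tested genes. These counts describe the sequence only, and no methylation was measured.

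Cholesterol genes were mostly called higher in T24T. Of 24 tested members, 9 were called higher in T24T and 1 in UMUC3, with a median of 0.79, and 18 against 1 had an adjusted p under 0.05 when size is left aside (40.8% and 29.6% of all genes). HMGCS1, an early enzyme of the pathway, stood at 69.9 and 64.9 against 24.7 and 22.7 (1.47, SE 0.064, limma adjusted p = 5.16e-06). MVD, a later enzyme, stood at 11.5 and 11.8 against 3.34 and 3.41 (1.53), and STARD4, a cholesterol carrier, at 38.4 and 34.7 against 8.69 and 9.24 (1.91).

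Fatty acid genes as a list were near the background, with 3 of 31 tested called in T24T and 2 in UMUC3, but single members were far apart. ACSL4, which activates polyunsaturated fatty acids, stood at 22.3 and 22.8 in T24T and 0.0353 and 0.0343 in UMUC3 (4.51). ELOVL2, an elongase of polyunsaturated fatty acids, stood at 0.0211 and 0.0318 against 17.0 and 15.1 (-4.05), while ELOVL7 was higher in T24T (8.79 and 8.42 against 0.973 and 0.846, 2.33). CPT1A, which brings fatty acids to mitochondrial oxidation, was higher in UMUC3 (9.04 and 9.49 against 22.6 and 24.9, -1.27). SCD, the desaturase, was just under the rule (110 and 101 against 55.2 and 55.7, 0.92).

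**Figure D4:**
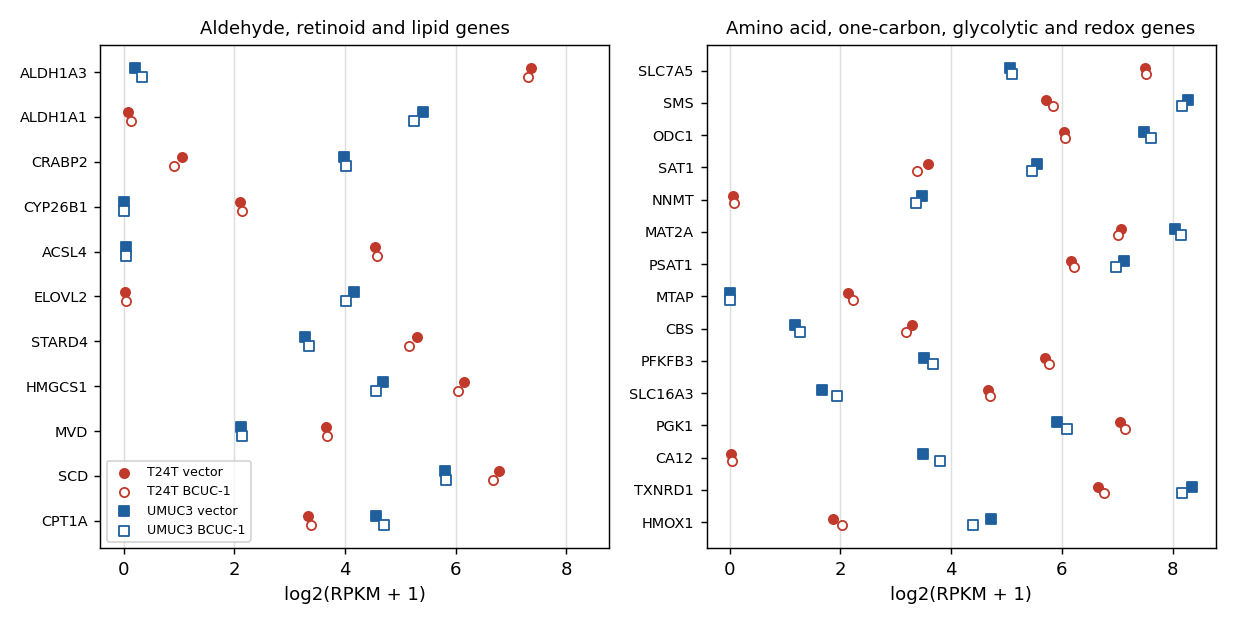
Levels of aldehyde, retinoid and lipid genes (left) and of amino acid, one-carbon, glycolytic and redox genes (right) as log2(RPKM + 1), 1 point per library, symbols as in the legend. ALDH1A3, ACSL4 and SLC7A5 are higher in T24T and ALDH1A1, ELOVL2 and SMS are higher in UMUC3, with no overlap between lines.

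Of 34 tested members of the amino acid and ATF4 list, 2 were called higher in T24T and 9 in UMUC3 (median -0.43). SLC7A5, the transporter of large neutral amino acids, stood at 179 and 184 against 32.3 and 33.3 (2.43, limma adjusted p = 8.84e-07), and ATF5, a stress factor, at 73.1 and 75.3 against 23.6 and 24.6 (1.58). Among the 9 called the other way were CEBPB (4.73 and 5.42 against 17.3 and 17.9, -1.61) and 3 polyamine enzymes. ODC1, which starts polyamine synthesis, stood at 64.4 and 65.8 against 178 and 193 (-1.5), SMS, spermine synthase, at 51.6 and 56.6 against 311 and 289 (-2.45), and SAT1, which acetylates polyamines for export, at 11 and 9.40 against 45.7 and 43.1 (-2.02). ATF4 itself was not called (89.3 and 92.2 against 132 and 132, -0.54).

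One-carbon and methionine genes had 5 of 24 tested higher in T24T and 3 in UMUC3. MTAP, which recycles the methylthioadenosine that polyamine synthesis releases, stood at 3.38 and 3.67 with 0 reads in both UMUC3 libraries. With a count of 0, up to 3 reads remain possible in each library. CBS and CTH, of the route from homocysteine to cysteine, stood at 8.82 and 8.08 against 1.27 and 1.42 (2.01) and at 2.34 and 1.97 against 0.406 and 0.401 (1.17). MAT2A, which makes the methyl donor, was higher in UMUC3 (133 and 129 against 264 and 283, -1.06), and so was NNMT, which spends it on nicotinamide (0.0434 and 0.0581 against 10.2 and 9.27, -3.35).

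Glycolytic genes were called at few steps, 4 of 32 tested in T24T and 3 in UMUC3 (2 and 4 with equal medians). SLC16A3, a lactate exporter, stood at 24.4 and 25.1 against 2.18 and 2.85 (2.88), PFKFB3, which makes an activator of phosphofructokinase, at 50.7 and 53.6 against 10.4 and 11.7 (2.14), and PGK1 at 132 and 141 against 59.0 and 67.2 (1.10; 0.96 with equal medians). PFKP, a phosphofructokinase, was higher in UMUC3 (45.3 and 48.3 against 94.5 and 104, -1.06; just under 2-fold without UMUC3 BCUC-1), with the hypoxia-regulated CA12 (0.0173 and 0.0290 against 10.3 and 12.9, -3.61) and ADM (3.03 and 4.18 against 19.8 and 16.3, -2.05). The 2 members with the highest level that were not called were ENO1 (997 and 1020 against 746 and 796) and LDHB (590 and 617 against 552 and 575).

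Respiratory chain genes differed little in size. Of 65 nuclear subunits tested, 1 was called higher in T24T and 3 in UMUC3, with a median of -0.10 (1 and 5 calls and -0.22 with equal medians). SDHD, a subunit of succinate dehydrogenase, stood at 15.8 and 15.9 against 38.7 and 39.9 (-1.26) and its partner SDHC at 7.96 and 7.45 against 2.94 and 2.88 (1.15). SDHD, NDUFS8 and NDUFV1, the 3 higher in UMUC3, all lie on chromosome 11. The 13 mitochondrially encoded mRNAs had 0 calls by size, but each was lower in T24T, 12 with an adjusted p under 0.05, and the median of -0.67 moved to -0.088 under quantile normalization. MT-CO1 was the member not passing (-0.065, limma adjusted p = 0.543). Entry to the TCA cycle had 1 call in T24T and 2 in UMUC3 of 22 tested, the latter PDHA1 (23.2 and 24.1 against 45.7 and 52.2) and IDH3G (9.43 and 9.5 against 19.0 and 21.4). Neither was 2-fold apart without UMUC3 BCUC-1 (-0.92 and -0.93), nor PDHA1 without T24T vector (-0.99). The T24T call, MPC2 of the mitochondrial pyruvate carrier (27.1 and 25.8 against 12.2 and 12.8, 1.02), was lost without either vector library (0.99 in each case), and under equal medians and quantile normalization the list had 0 and 3 calls.

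NADPH sources had 4 of 13 tested higher in T24T and 1 in UMUC3 (2 and 1 with equal medians). NNT, the mitochondrial transhydrogenase, stood at 13.9 and 13.7 against 2.23 and 2.19 (2.20), and IDH1 at 17.9 and 17.6 against 5.80 and 6.71 (1.37), while ME3, a mitochondrial malic enzyme, was higher in UMUC3 (1.80 and 2.29 against 7.56 and 9.41, -1.64). NRF2 targets and glutathione genes had 3 of 33 in T24T and 8 in UMUC3 (median -0.38). HMOX1, which breaks down heme, stood at 2.65 and 3.10 against 25.2 and 20.01 (-2.60), and the thioredoxin reductase TXNRD1 at 99.6 and 108 against 327 and 288 (-1.55). GSTM3 (0.0267 and 0 against 5.65 and 6.21) and GSTO2 were higher in UMUC3, and GSTT2, EPHX1 and GSS (34.5 and 32.8 against 14.2 and 16.8; 0.96 without UMUC3 vector) in T24T. NFE2L2, the gene of NRF2, was not called (9.10 and 9.12 against 7.59 and 7.04, 0.28).

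Nucleotide and creatine genes were near the background, 3 of 25 in T24T and 2 in UMUC3, with a median of 0.044 that turned to -0.092 under another scaling. GAMT, which completes creatine synthesis, stood at 4.82 and 4.06 against 0 and 0.0252, and the creatine transporter SLC6A8 at 7.35 and 6.97 against 2.65 and 3.49 (under 2-fold at 0.98 without T24T vector and 0.86 without UMUC3 vector), while DPYD, which degrades pyrimidines, was higher in UMUC3 (2.91 and 3.14 against 7.64 and 8.36). Of 5 xenobiotic genes tested, CYP2S1 (3.0 and 3.02 with 0 in both UMUC3 libraries) and its regulator AHR (1.65 and 1.62 against 0.181 and 0.264) were higher in T24T. Of 9 metallothionein and zinc genes, MT1E was higher in T24T (43.5 and 62.1 against 0.0717 and 0.0418) and MT1X in UMUC3 (6.22 and 8.42 against 19.5 and 16.1; -0.99 without T24T vector).

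Genes near 0 in one line were next placed along the chromosomes. Of 31403 genes of at least 200 bases, 81 (0.258%) were under 0.1 RPKM in both UMUC3 libraries and at least 5 RPKM in both T24T libraries, and 62 (0.197%) the reverse. Chosen by value, they carry no test. The genes expressed at 1 RPKM or more in both libraries of either line were put in order. Outside chromosome Y, which was left out, 20 runs of 3 or more neighbours were near 0 in the same line.

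Some of these runs held tumour suppressor or metabolic genes. On chromosome 9 from 21802543 to 22032986, MTAP, CDKN2A, CDKN2B and a clone-named gene among them had 0 and 1 reads in all in UMUC3 vector and BCUC-1, and 2225 and 2240 in T24T. Their expressed neighbours KLHL9 (6.71 and 6.50 against 7.73 and 7.71) and TUSC1 (13.8 and 14.6 against 15.1 and 18.7) were present in both lines. On the X chromosome from 109535781 to 110440233, NXT2, ACSL4, TMEM164 and AMMECR1 had 10 and 7 reads in UMUC3 against 5191 and 5227 in T24T. Of the expressed neighbours of this run, COL4A5 was also lower in UMUC3 (3.76 and 3.14 against 0.682 and 0.665). RP11-111F16.2 on the other side was higher there (38.1 and 42.5 against 70.7 and 71.7). The low value of ACSL4 in the fatty acid list was thus shared by its expressed neighbours, as was that of MTAP in the one-carbon list.

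**Figure D5:**
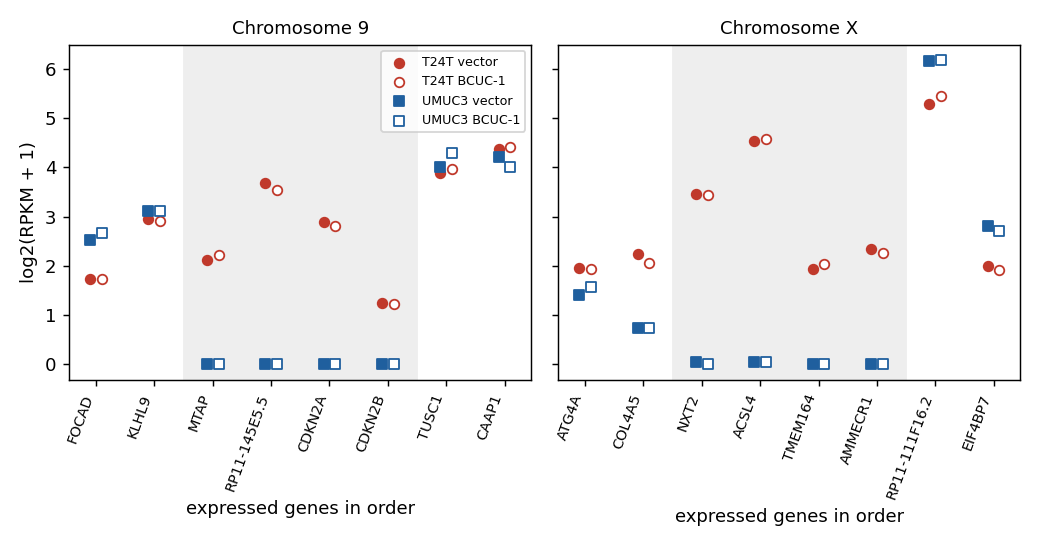
Levels, as log2(RPKM + 1), of the genes expressed in either line in their order along chromosomes 9 and X, evenly spaced, with 1 point per library and the run near 0 in UMUC3 shaded. Inside the shaded runs both UMUC3 libraries lie at or near 0 and both T24T libraries above. KLHL9 and TUSC1, beside the chromosome 9 run, are present in both lines. COL4A5, beside the X run, is detected in both lines but lower in UMUC3, and RP11-111F16.2 on the other side is higher there.

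Further runs near 0 in UMUC3 included imprinted and clustered genes. On chromosome 15, SNRPN, SNURF and RP11-701H24.9 had 4 and 3 reads in UMUC3 against 2580 and 2659 in T24T, though SNURF and SNRPN share exons (69.3% of SNURF) and are not separate measurements. Next in order came SNHG14, which was detected in UMUC3 with 211 and 124 reads against 3313 and 2976 in T24T. The stretch was thus not near 0 throughout. In a second run after it, PWAR5, PWAR6 and 4 clone-named genes had 1 and 2 reads against 988 and 786. UBE3A beyond them stood at 11.3 and 11.7 RPKM in T24T against 6.51 and 5.61. SNRPN and its neighbours are expressed from the paternal copy in normal tissue. On chromosome 7, HOXA9, HOXA10, HOXA10-AS and the read-through HOXA10-HOXA9 had 1 read in each UMUC3 library and 826 and 741 in T24T, and a run of 9 genes with ARHGEF5, ARHGEF35 and ARHGEF34P had 9 and 8 against 9954 and 9677. IGF2BP1 lay in such a run on chromosome 17 with 2 clone-named genes.

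Runs near 0 in T24T included tissue-restricted genes. On chromosome 12, the hepatic transporter genes SLCO1B3, SLCO1B7 and SLCO1B1, which are alike in sequence, with RP11-545J16.1 and RP11-125O5.2, had 4 and 4 reads in T24T against 2611 and 1880 in UMUC3. On chromosome 21, TMPRSS15, AL109763.1 and MIR548XHG had 3 and 5 against 3332 and 2739, and on chromosome 11 the olfactory receptor genes OR51B4 and OR51B5 with AC104389.28, next to HBE1, had 2 and 0 against 760 and 497. On the X chromosome, GABRE, RP11-1007I13.4, MAGEA10 and GABRA3, between MAGEA4 and MAGEA3, had 11 and 9 against 2365 and 1825. GMPR, a purine enzyme, and ATXN1 on chromosome 6 with RP1-151F17.1 had 15 and 10 against 1230 and 1079. No DNA was measured, so a lost copy and a silent one cannot be told apart.

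Whole chromosomes, with Y left out, also differed in their medians. Tested genes on chromosomes 10 and 11 had medians of -0.23 and -0.24, with 15.1% and 15.6% called higher in UMUC3 against 7.73% over all. Those on chromosomes 20, 16 and 2 had medians of 0.46, 0.41 and 0.33, with 16.4%, 10.8% and 17.0% called higher in T24T against 10.2%. Chromosome X had similar shares in both directions, 16% in T24T and 14.7% in UMUC3, with a median of 0.016.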

How the data were processed

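RNA from 4 cultures, 1 library per group, was sequenced with standard Illumina libraries, per the labels. The authors deposited RPKM per gene, scaled by exonic length and per 1000000 assigned reads, and a Length (unit other), the exonic bases of the gene per the file headers. The submitters' processing notes list Bowtie 0.12.2. Its role is not given in the sources used here, nor are the counter, the build or the annotation. Of 22720 symbols with 1 gene in GENCODE 29, 96.5% share a start or end on GRCh38, so coordinates are given on that build. The counting is not stated to use strand, so reads of overlapping genes cannot be told apart. RPKM times length gave whole reads for 100% of values (tolerance 0.001), and the depths were 23679229 (vector) and 23588847 (BCUC-1) reads in T24T and 26497894 and 22730112 in UMUC3. Limits on counts cover counting error only.

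Lines were compared with limma 3.58.1 in R 4.3.3 (trend, two-sided, line plus plasmid, 1 residual degree of freedom) on log2(RPKM + 1), pseudocount 1, with Benjamini-Hochberg adjustment over 15415 genes. On simulated data of 14827 genes, an adjusted p under 0.05 recovered 74 of 94 genes changed 2-fold and 15 of 96 changed 1.5-fold. It also passed 34 of the 14637 genes simulated without a difference, so false passes were a larger share of passing genes than 0.05. The simulation had few changed genes, a preset spread, no plasmid effect and no 2-fold rule. It thus does not give the error rate of the calls reported here. Nothing in the labels says that the cultures of a line were grown apart. Members and the 41 lists were chosen with earlier results of these data known, so lists carry no test. Named genes were the 15 largest called differences each way (at least 500 bases and 10 RPKM, no clone-based names), up to 4 called members of each list each way and 2 not called, every driver, keratin and urothelial gene, FNDC3B and genes in runs. Epithelial markers below the floor were added after their values were seen. The 27 names altered by date conversion and 2 repeated names were tested but not named. GC content was not tested. Some genes and 1 run of neighbours are not reported here.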

Additional observations from a re-analysis of the deposited data

How the results depend on the processing

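The counts of 1568 genes higher in T24T and 1192 higher in UMUC3 became 835 and 655 at a floor of 5 RPKM, where fewer genes were tested. Those higher in T24T became 2450 with a pseudocount of 0.1 and 2548 with limma-voom on the recovered reads (1652 and 1694 for UMUC3); the cause was not tested. Leaving out 1 library at a time, with no plasmid block, gave 1516 to 1641 and 1160 to 1232, the line left with 1 library being assumed to vary like the other. Without the block the counts were 1566 and 1191. No paired analysis was possible because each group holds 1 library, beyond the plasmid block itself. Scaling shifted the median gene by -0.12 (equal medians) and -0.11 (quantile), and the share of calls higher in T24T went from 56.8% to 47.9% and 47.8% (1307 and 1419 calls, 1276 and 1396 calls). The 280 called genes named kept their direction and an adjusted p under 0.05 in each fit that tested them, of which 192 were tested at 5 RPKM, 272 at 500 bases or more, and 279 at 20 reads or more, a floor chosen after seeing the data. Their size was not always 2-fold: leaving out 1 library put 2 to 6 of them under the rule, equal medians 13 and quantile normalization 14. The runs of expressed neighbours were also defined after seeing the data. The 2760 calls include 49 genes with under 20 reads in all and 156 shorter than 200 bases.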
